A study of Homo sapiens with 3 samples.

Results

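The expression of 9 genes of the p53 pathway was examined in unstressed HEK-293T cells, which derive from human embryonic kidney and were transformed with viral genes. The genes were the p53 relatives TP63 and TP73, the regulators MDM2 and MDM4, and the p53 targets CDKN1A, SESN1, GDF15, PMAIP1 and RRM2B. Every probe set whose symbol in the platform annotation included one of these genes was taken, which gave 27 of the 54675 probe sets for 8 of the 9 genes, out of 19775 genes with a probe set of their own. The levels of TP63 and of the gene of p53 itself were not analysed here. Of the 8 genes, 6 were above the background of the arrays (MDM2, MDM4, CDKN1A, SESN1, PMAIP1 and RRM2B), and TP73 and GDF15 were not. By the same rule 50.2% of all genes were above background. A gene counted when any of its probe sets did, which favours genes with many, and MDM2 has 10 and MDM4 has 6. Of the 27 probe sets 12 were above background, against 36.9% of all probe sets.

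Total RNA came from 3 cultures of 1 cell line, each on a separate U133 Plus 2.0 array from Affymetrix. The low-seeded culture was started from 375K cells and harvested after 48 h, the 24 h culture from 1000K cells and harvested after 24 h, and the high-seeded culture from 750K cells and harvested after 48 h. Signals of a probe set are given in that order (low-seeded, 24 h, high-seeded) wherever 3 values follow each other. All cultures grew in DMEM with 10% FBS without stress, and the sample records state that they carry an inserted SV40 T-antigen gene that is temperature sensitive. Harvest time, seeding density and any batch cannot be told apart, and no cells without T antigen are among the arrays, so levels are described here and no effect of T antigen.

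The transcription factor p53 is held at a low level by MDM2, an E3 ubiquitin ligase that marks it for degradation, and by MDM4, which binds its activation domain. MDM2 is itself a p53 target, which closes a negative feedback loop. On DNA damage p53 is released and induces genes of cell cycle arrest, apoptosis and DNA repair. Large T antigen binds the DNA-binding domain of p53 and blocks this activity while p53 protein accumulates, and HEK-293 cells also carry an adenovirus E1B protein that binds p53. Bulk RNA does not tell fewer expressing cells from less RNA per cell.

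p53 binds DNA as a tetramer to a pair of half-sites. The window from 250 bases before to 50 bases after each transcript start was taken from RefSeq (GRCh38.p14) for 8 of the 9 genes, all but RRM2B, in 15 windows, some of which overlap. It was searched for the p53 consensus half-site of 10 bases, which reads the same on both strands, and for 2 half-sites without a spacer with at most 2 mismatches over their 20 bases. Such a pair lay in the downstream windows of MDM2 and in 1 of 3 windows of TP73, and an exact half-site in 1 of 3 windows of SESN1. A pair was found in 0.65% of all 35116 windows and an exact half-site in 6.63%. The form of the search was chosen with the known MDM2 site in mind, so the MDM2 match is no test of it. These windows and the upstream MDM2 window, which holds no match, are shown with the matches in capitals, since MDM2 is known to have an upstream promoter used without p53 and a p53-responsive one in its first intron. A match is a description of letters, and the probe sets do not tell the promoters apart.
MDM2 upstream window, chr12:68807922-68808221, plus strand: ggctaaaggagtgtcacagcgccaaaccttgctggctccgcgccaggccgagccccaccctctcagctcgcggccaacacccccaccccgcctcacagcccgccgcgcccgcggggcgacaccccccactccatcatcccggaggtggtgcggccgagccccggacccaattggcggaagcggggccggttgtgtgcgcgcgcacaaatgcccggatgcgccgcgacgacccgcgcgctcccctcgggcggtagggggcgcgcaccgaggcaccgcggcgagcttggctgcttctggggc
MDM2 downstream window, chr12:68808767-68809066, plus strand: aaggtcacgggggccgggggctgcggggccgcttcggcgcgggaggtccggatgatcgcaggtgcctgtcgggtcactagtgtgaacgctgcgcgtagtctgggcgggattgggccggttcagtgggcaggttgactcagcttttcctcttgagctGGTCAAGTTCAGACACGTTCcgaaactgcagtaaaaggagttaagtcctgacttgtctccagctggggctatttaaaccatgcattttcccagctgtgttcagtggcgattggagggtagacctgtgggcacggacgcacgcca
TP73 window, chr1:3690422-3690721, plus strand: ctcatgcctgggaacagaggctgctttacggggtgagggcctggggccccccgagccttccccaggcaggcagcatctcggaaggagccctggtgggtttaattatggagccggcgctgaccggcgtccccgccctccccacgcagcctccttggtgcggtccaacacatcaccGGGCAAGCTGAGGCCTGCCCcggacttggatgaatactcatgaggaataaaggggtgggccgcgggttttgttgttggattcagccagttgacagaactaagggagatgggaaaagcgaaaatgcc
SESN1 window, chr6:109008939-109009238, minus strand: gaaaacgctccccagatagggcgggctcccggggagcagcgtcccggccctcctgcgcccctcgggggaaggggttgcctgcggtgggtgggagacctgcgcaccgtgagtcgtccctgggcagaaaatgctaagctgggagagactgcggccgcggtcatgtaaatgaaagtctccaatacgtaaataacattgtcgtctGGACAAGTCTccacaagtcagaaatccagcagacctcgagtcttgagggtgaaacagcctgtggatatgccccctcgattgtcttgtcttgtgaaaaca
The pair in MDM2 lies from position -94 to -75 before the transcript start, that in TP73 from -76 to -57, and the half-site of SESN1 begins at position -49. The windows of TP63, MDM4, CDKN1A, GDF15 and PMAIP1 hold neither match. This says only that these letters are not in the window, as the known sites of CDKN1A lie further upstream.

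The values are MAS5 signals, an intensity on a linear scale in which 1 value stands for all probes of a probe set. The background was set by 306 probe sets of genes specific to other tissues or encoding olfactory and taste receptors. Their 95th percentile was the threshold of each array (109.4, 100.2 and 134.7), and a probe set had to pass it on every array to count as above background. By this rule 36.9% of all probe sets and 50.2% of all genes were above background, against 12 of the 27 probe sets and 6 of the 8 genes described here. Median signals were 71.0 to 80.3 and RNA integrity numbers 9.5 to 10.0. Of the markers of kidney progenitors, 4 of 6 measured were above background, but PAX2 and LHX1 were not, and neither was any of 4 markers of mature renal tubules. Neurofilament genes were above background in 3 of 4 cases, fibroblast markers in 1 of 5 (COL1A1) and leukocyte markers in 0 of 5. Signals of different probe sets depend on their probes and were not read as relative amounts of RNA. Where a further pathway gene has several probe sets, the value printed is that of the one with the highest mean signal.

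TP73 encodes a p53 relative that can bind many of the same sites and is expressed in full-length and N-terminally truncated forms. None of its 3 probe sets was above background on all 3 arrays. The probe set 232546_at gave 92.1, 124.4 and 152.0, which is above the threshold of the 24 h and the high-seeded array and below that of the low-seeded one. The probe set 1554379_a_at gave 49.9, 87.1 and 202.8 and exceeded the threshold only on the high-seeded array. The third, 220804_s_at, stayed at 6.39, 6.85 and 25.4. All 3 signals were highest in the high-seeded culture and lowest in the low-seeded one. Relative to the threshold of each array, 232546_at was highest at 24 h (0.842, 1.24 and 1.13 times). The others stayed highest in the high-seeded culture. The high-seeded array also had the highest median signal of the background reference (24.0 against 19.8 and 19.2). The part of this difference in the TP73 signals was not tested. With the 90th percentile, with the receptors alone as reference, where 2 arrays were enough or without the low-seeded culture, TP73 was above background through 232546_at.

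MDM2 was above background on 3 of its 10 probe sets. The probe set 229711_s_at gave signals of 1542, 1846 and 1841 (1743 ± 174, SD, n = 3). The probe set 225160_x_at gave 1236, 1323 and 1292 (1284 ± 44.1). The third, 217542_at, gave 256.6, 341.4 and 289.1 (295.7 ± 42.8). On these 3 probe sets the low-seeded culture was lowest and the 24 h culture highest, the 24 h and the high-seeded culture lying close together on 229711_s_at.

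Of the other 7 MDM2 probe sets, 5 exceeded the threshold on no array. Their signals ran from 3.51, that of 237891_at in the low-seeded culture, to 103.8, that of 205386_s_at in the high-seeded one, and all 5 were highest in the high-seeded culture. The probe set 217373_x_at gave 179.8, 137.1 and 124.7 and missed the threshold on the high-seeded array. The probe set 244616_x_at gave 286.1, 366.6 and 55.0. It was well above the threshold on 2 arrays and far below it in the high-seeded culture, where 225160_x_at and 229711_s_at showed no such drop. Endings of _x_at and _s_at mark probe sets whose probes can also match other transcripts. Of the 3 MDM2 probe sets above background 217542_at alone has neither ending, and MDM2 did not pass when most probe sets of a gene had to be above background.

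MDM4 was above background on 4 of its 6 probe sets. The probe set 236814_at gave 1973, 1733 and 1920 (1875 ± 126.1, SD, n = 3). The probe set 225740_x_at gave 884.6, 868.4 and 711.5 (821.5 ± 95.6). The remaining pair above background were 225742_at with 236.6, 222.2 and 153.9 and 205655_at with 194.3, 130.1 and 156.7. All 6 MDM4 probe sets were highest in the low-seeded culture, but 3 were lowest at 24 h and 3 on the high-seeded array. The probe set 235162_at gave 177.8, 155.0 and 133.7 and reached 0.992 times the threshold on the high-seeded array. The sixth, 241876_at, stayed at 101.5, 63.9 and 92.1. As MDM4 was above background on 3 of its 5 probe sets with a plain _at ending, its call did not rest on probes that can match other transcripts.

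**Figure D1:**
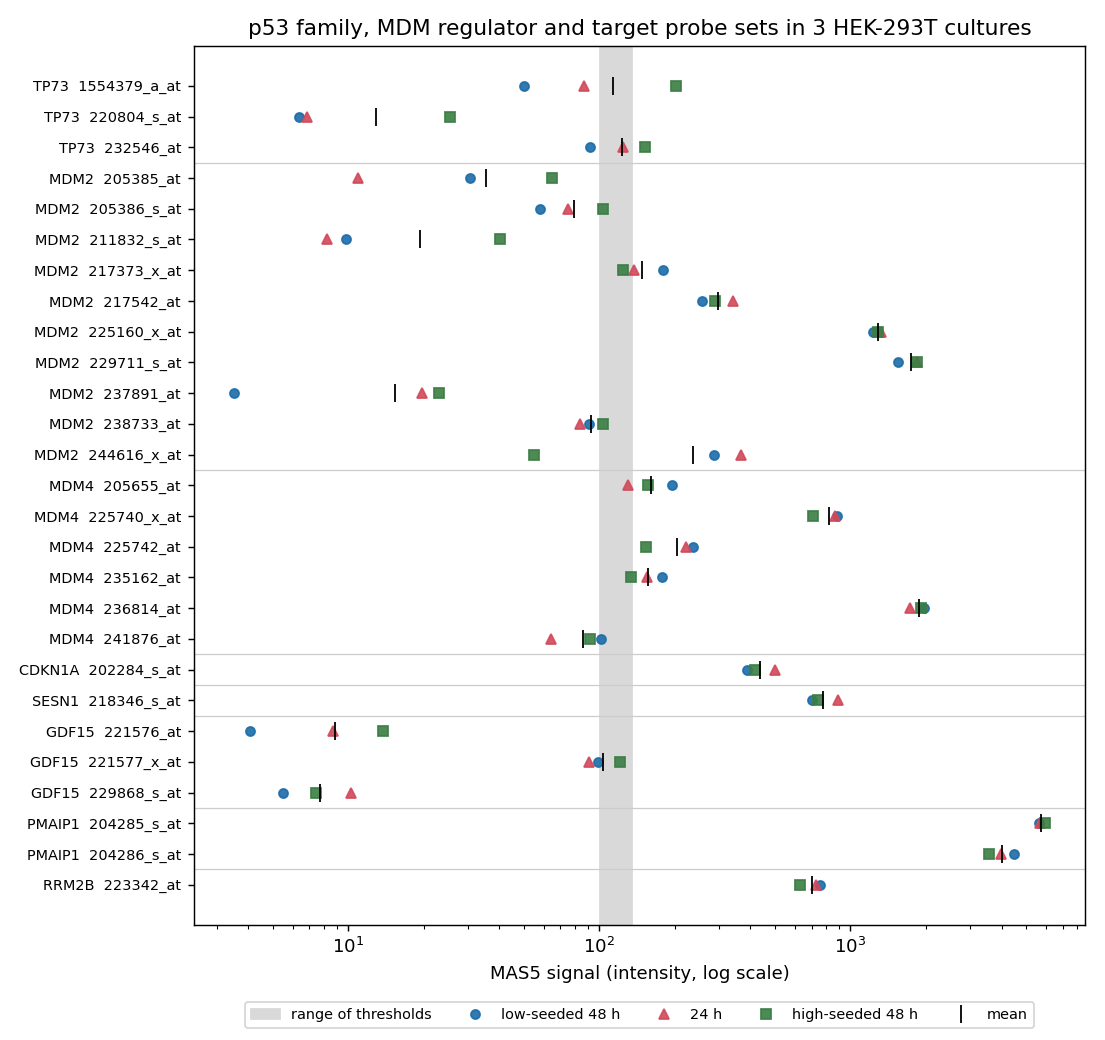
MAS5 signal (horizontal axis, intensity on a log scale) of the 27 probe sets of TP73, MDM2, MDM4, CDKN1A, SESN1, GDF15, PMAIP1 and RRM2B (rows) in 3 HEK-293T cultures. Symbols are the arrays, ticks their arithmetic means and the grey band spans the thresholds of the 3 arrays, from 100.2 to 134.7. The probe sets of CDKN1A, SESN1, PMAIP1 and RRM2B lie to the right of the band, those of GDF15 to its left or within it, and MDM2 has probe sets on both sides.

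Of the 5 targets, PMAIP1, SESN1, RRM2B and CDKN1A were above background on every probe set, and GDF15 on none. PMAIP1 encodes NOXA, a BH3-only protein that binds MCL1 and promotes apoptosis. Its probe set 204285_s_at gave 5651, 5694 and 5959 (5768 ± 167.2, SD, n = 3), and 204286_s_at gave 4499, 3983 and 3570 (4018 ± 465.5). The first was highest and the second lowest in the high-seeded culture, so the pair did not vary together.

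CDKN1A encodes p21, the inhibitor of cyclin-dependent kinases through which p53 arrests the cell cycle. Its only probe set, 202284_s_at, gave 386.6, 502.7 and 418.0 (435.7 ± 60.1), at least 3.10 times the threshold on each array. SESN1 encodes sestrin 1, which restrains mTORC1 signalling. Its only probe set, 218346_s_at, gave 702.5, 891.0 and 741.7 (778.4 ± 99.5). Both genes were highest in the 24 h culture, with the 48 h cultures close to each other. RRM2B encodes the p53-inducible small subunit of ribonucleotide reductase, which supplies deoxynucleotides for DNA repair and for mitochondrial DNA. Its only probe set, 223342_at, gave 754.8, 726.4 and 628.3 (703.2 ± 66.4), lowest in the high-seeded culture.

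GDF15 encodes a secreted stress cytokine of the TGF-beta superfamily. Its 3 probe sets exceeded the threshold on no array. The probe set 221577_x_at came closest, with 99.2, 90.8 and 121.1, or 0.899 to 0.906 times the threshold of each array. The probe sets 221576_at and 229868_s_at lay between 4.06 and 13.8 on all arrays. With the 90th percentile or the receptors alone as reference GDF15 passed through 221577_x_at, whose probes can match other transcripts. The data do not show that GDF15 RNA is absent, only that it was not detectable above this background.

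The spread between the arrays followed the signal. The 12 probe sets above background had an SD of the log2 signal of 0.04 to 0.34 with a median of 0.17, close to the median of 0.15 over all probe sets above background. The 15 others had an SD of 0.15 to 1.5 with a median of 0.45, against 0.88 over all probe sets not above background. Compared with all probe sets of similar signal, 24 of the 27 lay between the 10th and the 90th percentile of the spread. Those above were 244616_x_at of MDM2, with an SD of 1.49 where the 90th percentile was 0.57, and 1554379_a_at of TP73, with 1.02 where it was 0.94. Of the 15 probe sets not above background, 10 were highest in the high-seeded culture, against 42.4% of all such probe sets. Of the 12 above background 1 was highest there, against 34.3%, and 6 were highest in the low-seeded culture, against 31.1%.

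**Figure D2:**
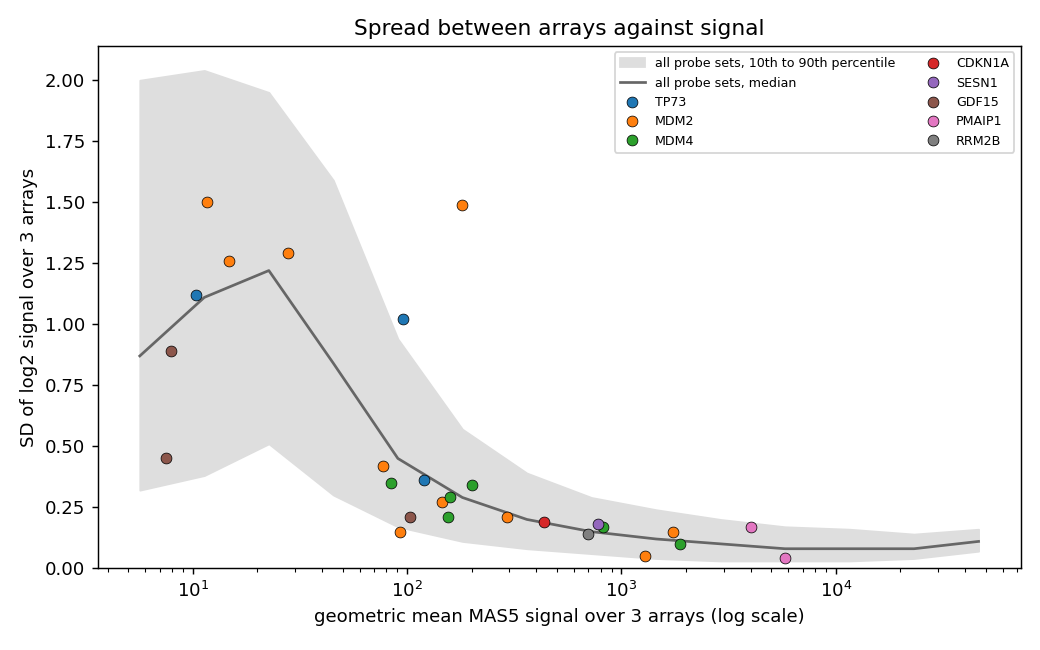
SD of the log2 signal over the 3 arrays (vertical axis) against the geometric mean MAS5 signal (horizontal axis, log scale). Points are the 27 probe sets, coloured by gene, and the grey band and line give the 10th to 90th percentile and the median of all probe sets in bins of signal. The MDM2 probe set 244616_x_at, with an SD of 1.49, stands apart from the band.

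To see whether any of these genes differed with the time of harvest, the 24 h culture was set against both 48 h cultures by limma. No probe set of the 8 genes passed. Of the 27 probe sets 16 had a signal high enough to be tested, and none had an adjusted p below 0.05, against 70 of 22029 over the whole array (0.318%). These were 54 higher (0.245%) and 16 lower (0.0726%) at 24 h, and 4 and 5 after scaling to equal medians. At an unadjusted p below 0.05 it was 1 of 16, against 9.5% of all tested. No probe set of the 8 genes passed in any of the 6 other fits either, and among these fits the one without the filter included the 11 low probe sets (limma, adjusted p from 0.92 to 0.999). The model leaves 1 residual degree of freedom and takes the spread of the single 24 h array to be that of the 48 h pair. The variance of each probe set was moderated towards the mean-variance trend over all tested probe sets. The median of the total degrees of freedom was 18.03, so the p-values rest largely on that trend. They cover no more than the spread between these samples, as nothing shows that the cultures came from separate passages.

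The log2 difference (24 h minus 48 h, on log2(signal + 21.0)) was 0.30 for SESN1 (95% interval -0.08 to 0.67, limma, adjusted p = 0.65) and 0.31 for CDKN1A (-0.21 to 0.82, adjusted p = 0.752), so a change of either sign was not shown for these genes. For PMAIP1 the difference was -0.03 (-0.23 to 0.18) for 204285_s_at and -0.01 (-0.26 to 0.25) for 204286_s_at. For 225160_x_at of MDM2 the difference was 0.07 (-0.23 to 0.36) and for 229711_s_at 0.13 (-0.15 to 0.41). For 236814_at of MDM4 it was -0.17 (-0.42 to 0.09) and for RRM2B 0.07 (-0.33 to 0.48). The unadjusted p below 0.05 was that of 244616_x_at of MDM2, whose log2 difference of 1.34 had an interval of 0.18 to 2.51 (adjusted p = 0.428). Its standard error was 0.55 in this fit and 0.38 after scaling to equal medians, where the interval was 0.63 to 2.14. Without the mean-variance trend the standard error was 0.94 and the interval, -1.39 to 4.08, included 0, as in no other fit. Without the high-seeded array the difference was 0.34, and without the low-seeded array 2.35. Other differences also moved with the 48 h array that was left out. Without the low-seeded and without the high-seeded array respectively, that of RRM2B was 0.20 and -0.05, that of 204285_s_at of PMAIP1 -0.07 and 0.01, and that of 204286_s_at 0.16 and -0.17. For MDM2 it was 0.00 and 0.26 on 229711_s_at and 0.03 and 0.10 on 225160_x_at. The sign also turned for 232546_at of TP73 (-0.25 and 0.36) and 217373_x_at of MDM2 (0.12 and -0.35). On MDM4 it turned for 225740_x_at (0.28 and -0.03), 225742_at (0.48 and -0.08) and 235162_at (0.19 and -0.18). CDKN1A (0.25 and 0.36), SESN1 (0.26 and 0.33) and 236814_at of MDM4 (-0.15 and -0.18) kept their sign. So did 205655_at of MDM4 (-0.23 and -0.51) and 217542_at of MDM2 (0.22 and 0.38). Over the 16 probe sets the median difference was 0.07, against 0.00 over all tested. The 24 h signal was above both 48 h signals for 6 of them, against 35.1% of all tested, and below both for 2, against 35.4%.

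**Figure D3:**
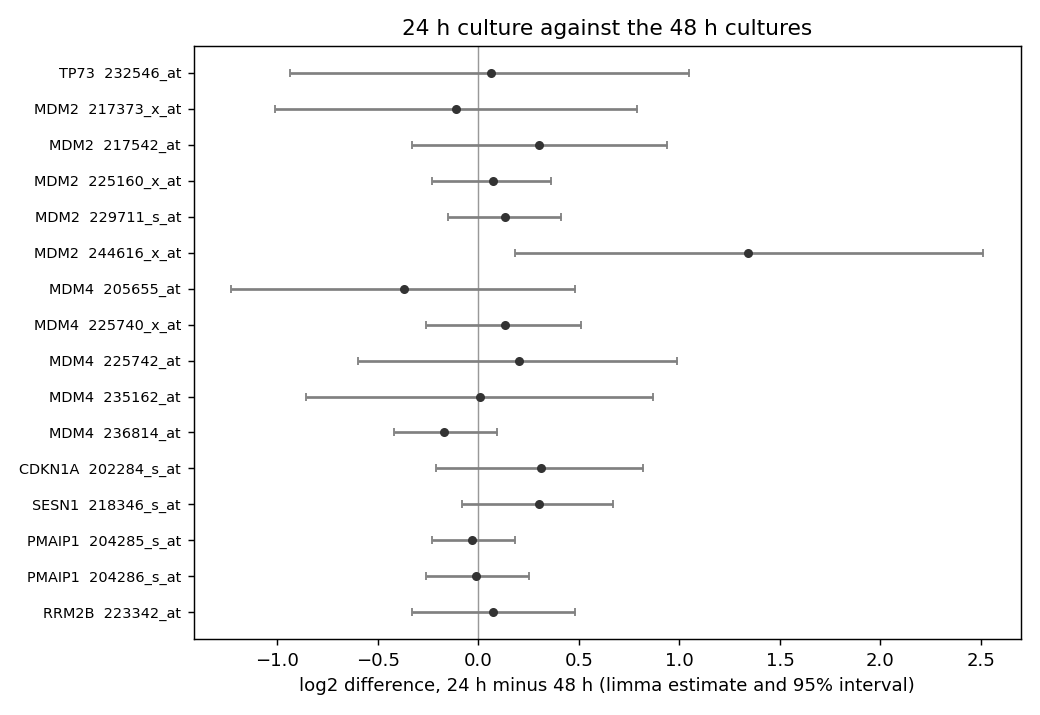
Log2 difference between the 24 h culture and the 48 h cultures (horizontal axis, 24 h minus 48 h) for the 16 probe sets tested (rows). Points are the limma estimates and bars their 95% intervals. Of the 16 intervals, that of the MDM2 probe set 244616_x_at, from 0.18 to 2.51, is the one that does not include 0, and its adjusted p was 0.428. Its interval was -1.39 to 4.08 without the mean-variance trend and 0.63 to 2.14 after scaling to equal medians.

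Other genes of the pathway were taken from 4 lists, 3 of further p53 targets and 1 of partners of the p53 and MDM2 proteins. Of the 27 further targets measured, 21 (77.8%) were above background, against 50.2% of all genes. Among the cell cycle targets 5 of 7 were above background, such as CCNG1, cyclin G1, with 14121 ± 879 on its probe set (SD, n = 3), and PPM1D, the WIP1 phosphatase that switches the p53 response off, with 2732 ± 49.1 on the brighter one. GADD45A and ZMAT3 were also above background, and the polo-like kinases PLK2 and PLK3 were not. Among the death targets 9 of 12 were, among them BAX, the pore-forming BCL2 family protein, with 1268 ± 278 on the brighter probe set, FAS, TNFRSF10B and TP53I3. The death receptor TNFRSF10A, EDA2R and TP53AIP1 were not. Among the repair and metabolism targets 7 of 8 were, including the damage sensors XPC and DDB2, the translesion polymerase POLH and TIGAR, and SPATA18 was not. Of the partners 16 of 18 were above background, with the deubiquitinase USP7 at 2859 ± 103 on its brightest probe set and the ubiquitin ligases RCHY1, COP1 and HUWE1 among them, whereas PPP1R13L and CUL9 were not. These counts describe the lists, which were not drawn at random from the array.

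**Figure D4:**
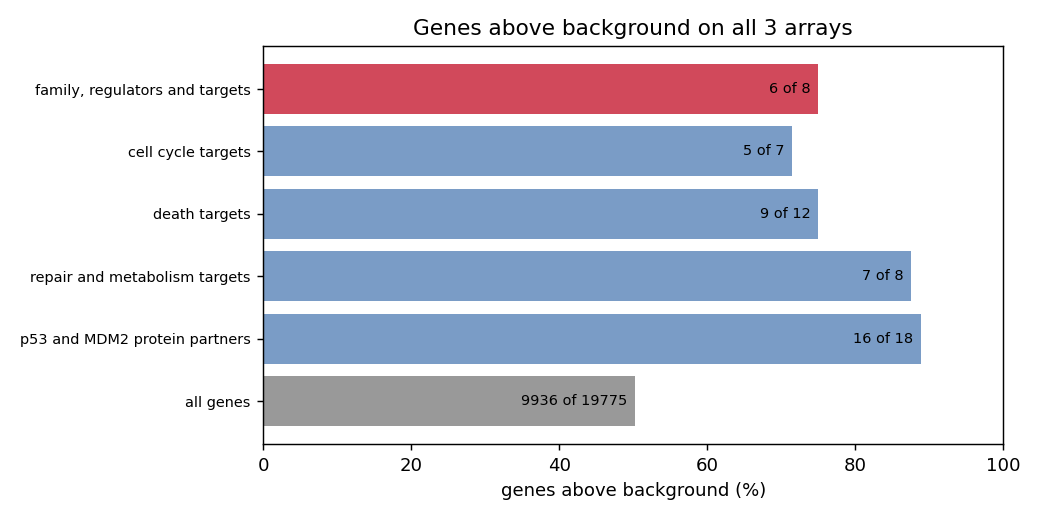
Share of genes above background on all 3 arrays (horizontal axis, percent) for the 8 genes described here, 4 lists of further pathway genes and all genes of the array (rows). The counts stand in the bars. The shares of the lists lie between 71.4% and 88.9%, and that of all genes is 50.2%.

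Between the 24 h and the 48 h cultures 2 of the 19 tested probe sets of the death targets passed and none of the other lists, against 0.318% of all tested. Both were of 1 gene, PERP, a desmosomal membrane protein and p53 target of apoptosis. Its probe set 217744_s_at gave 3260 at 24 h against 1944 in the low-seeded and 2051 in the high-seeded culture (log2 difference 0.70, standard error 0.11, limma, adjusted p = 0.0085). The probe set 222392_x_at gave 7368 against 5286 and 4859 (0.54, standard error 0.10, adjusted p = 0.0211). The PERP signal was higher at 24 h than in both 48 h cultures on both, and 236009_at, with 202.4 against 170.1 and 119.9, did not pass (adjusted p = 0.802). Neither passed once the arrays had equal medians, where the log2 differences were 0.75 and 0.59 with standard errors of 0.28 and 0.24 (adjusted p = 0.823 and 0.988 by limma). Without the mean-variance trend neither passed, with differences of 0.70 and 0.54 and standard errors of 0.15 and 0.16 (limma, adjusted p = 0.749 for each). The differences were no smaller in these fits, and their standard errors were larger. The median total degrees of freedom also differed, with 18.03 in the main fit, 22037 after scaling to equal medians and 3.55 without the trend. Which of these kept PERP from passing was not tested.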

How the data were processed

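Total RNA of 3 HEK-293T cultures was labelled with biotin and hybridised by the authors to 1-colour Affymetrix U133 Plus 2.0 arrays. The deposited values are MAS5 signals, an intensity on a linear scale (GCOS 1.0 in the submitters' processing notes), which the authors had scaled to a trimmed mean of 500.1 on each array. No pair of arrays held identical values. The authors' absent/present calls were not used here, and the background threshold described in the report stands in for them. Precision is limited by the number of arrays.

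Genes were assigned from the platform annotation, with symbols brought to GRCh38.p14 by gene ID. Probe sets listed for several genes (1801) named none. The reference of 306 probe sets covered 222 genes. Of the probe sets, 127 were for olfactory and taste receptors, and 7 exceeded the threshold themselves (those of KRT10, CPS1, TNNT3 and CTRL). The 24 h culture was compared with the 48 h cultures by limma 3.58.1 (R 4.3.3, lmFit and eBayes with a mean-variance trend) on log2(signal + 21.0), the median of the reference, for the 22029 probe sets averaging more than the mean threshold (114.8) on the log2 scale, with Benjamini-Hochberg adjustment. This scale understates changes of low signals. Both steps were run on simulated data. For limma the simulated variances followed the mean-variance trend of these arrays, so that run cannot show whether the calls hold without it. Promoter windows were taken from RefSeq, and the form of the p53 motif search was chosen with the known MDM2 site in mind.

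The genes and lists were chosen with earlier results of these data known. Named from the lists were genes with a called probe set, the smaller side of the background call, and the first 4 of the other. Alternatives were another percentile, reference, number of arrays or rule per gene, quantile normalization, each array left out, and for limma another added value, no filter, no trend or another scaling.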

Additional observations from a re-analysis of the deposited data

How the results depend on the processing

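Signal over background limits these results: under the threshold, pairs of arrays differed by a median of 0.92 to 1.00 on the log2 scale, against 0.15 to 0.18 above it. Of the 8 genes, 6 were above background, and 5 to 8 under the alternatives other than 2 that moved the counts by over 1.5 times. Under those alternatives the share of all genes was 37.1% to 54.2%. It was 37.1% where most probe sets of a gene had to pass, which left 5 of the 8 genes. The 99th percentile put the thresholds at 679.0, 898.2 and 599.2, against 109.4, 100.2 and 134.7. The KRT10 probe sets of the reference had mean signals of 3005.7 to 3358.3. At these thresholds 3 genes (MDM2, MDM4 and PMAIP1) and 5 probe sets were above background. So were 3 cell cycle, 5 death and 4 repair and metabolism targets, while the share of all genes went from 50.2% to 26.8%. Without probe sets whose probes can match other transcripts, 3 genes (MDM2, MDM4 and RRM2B), 5 probe sets, 3 death targets and 9 partners were counted, as CDKN1A, SESN1 and PMAIP1 have no other kind, and the share of all genes was 43.0%. With 1 array left out the count was 6 to 7 genes and 12 to 15 probe sets, and the share of all genes was 50.8% to 52.5%. A reference without KRT10 and CPS1, chosen after seeing the data, gave 6 genes and 14 probe sets, with 51.5% of all genes above background.

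Between the 24 h and the 48 h cultures limma called 70 probe sets. Other fits called 9 after scaling to equal medians (4 higher and 5 lower at 24 h) and 0 when the mean-variance trend was omitted (0 higher, 0 lower, 1356 at an unadjusted p under 0.05), and quantile normalization gave 25 lower in place of 16. The cause was not tested. The differences of PMAIP1 turned from -0.03 to 0.03 and from -0.01 to 0.04 after scaling to equal medians, within their intervals. With a 48 h array left out no residual degree of freedom remains, so only values were computed, and those of RRM2B and both PMAIP1 probe sets turned sign with the array left out. No paired analysis was possible because the labels give no replicate numbers shared between the groups.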
